A study of Mus musculus with 6 samples.

Results

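Chains of neighbouring distal peaks of H3K56ac, histone H3 acetylated on lysine 56, were described in mouse embryonic stem cells (mESCs). A peak is a stretch of DNA where immunoprecipitated fragments pile up over background, and the peak set analysed here was a single merged list of 11106 peaks on mm10. Of these, 3382 were distal, with a midpoint over 3 kb from every transcription start site (TSS) of a protein-coding gene. Distal peaks whose edges lay at most 12500 bp apart were chained, and 362 peaks in 98 chains of at least 3 peaks were selected on these distances alone. They made up 3.26% of all peaks and 10.7% of the distal peaks (9.71 to 11.8%, Wilson 95% interval, counting error only). Of the remaining distal peaks, 530 formed 265 pairs and 2490 had no distal neighbour within that gap.

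The cells were undifferentiated V6.5 mESCs on feeder cells, selected with puromycin after infection with lentivirus. The lentivirus encoded a scrambled shRNA in Scramble cells and an shRNA that targets *Sirt6* in *Sirt6* KD cells. The product of *Sirt6* is a nuclear deacetylase that acts on this residue. ChIP-seq of H3K56ac was done in 2 Scramble and 2 *Sirt6* KD libraries, with 1 input DNA library for each. The merged list carried neither a library, a group nor a signal for a peak, so the chains could not be compared between Scramble and *Sirt6* KD cells, and replicate error and depth were not measurable.

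Enhancers are regulatory DNA elements that bind transcription factors and raise transcription of genes at a distance, and acetylated histones mark those in use. Where many of them crowd together near genes that define a cell type, the group is often called a super-enhancer. In mESCs such groups are known near genes of the pluripotency network, whose factors include OCT4, SOX2, KLF4 and ESRRB. Super-enhancers are usually set apart by their summed ChIP signal, which these positions do not hold, so the chains are candidates by position and width only.

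The sequences below show the DNA under individual peaks of the chains, read from the GRCm38 assembly. Motifs were searched on both strands in the central 400 bases of each peak. The first set gives the 4 peaks whose window matched TTGTNATGC, the core of the element to which OCT4 and SOX2 bind side by side. Each line runs 5′ to 3′ on the strand of the match, with the match in capitals and 40 bases on either side.
Cggbp1 chain peak 3 (chr16:64886293-64886381, plus strand): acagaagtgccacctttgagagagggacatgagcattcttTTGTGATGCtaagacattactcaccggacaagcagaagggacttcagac
Chd2 chain peak 1 (chr7:73607097-73607185, plus strand): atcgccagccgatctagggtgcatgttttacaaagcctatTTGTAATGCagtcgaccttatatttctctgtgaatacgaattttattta
Grik3 chain peak 4 (chr4:125609353-125609441, minus strand): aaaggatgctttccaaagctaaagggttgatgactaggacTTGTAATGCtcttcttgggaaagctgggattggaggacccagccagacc
Mreg chain peak 2 (chr1:72229132-72229220, minus strand): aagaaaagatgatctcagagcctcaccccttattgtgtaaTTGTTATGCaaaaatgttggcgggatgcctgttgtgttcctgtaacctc

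The octamer ATGCAAAT, bound by OCT4 and other POU factors, was found in 13 peaks of 12 chains. Of these 12, the chains beside *Sox2* and *Sall1*, which encode transcription factors of mESCs, are shown by the central 300 bases of the matching peak on the plus strand. The capitals mark the octamer or its reverse complement.
Sox2 chain peak 2 (chr3:34668113-34668412, plus strand): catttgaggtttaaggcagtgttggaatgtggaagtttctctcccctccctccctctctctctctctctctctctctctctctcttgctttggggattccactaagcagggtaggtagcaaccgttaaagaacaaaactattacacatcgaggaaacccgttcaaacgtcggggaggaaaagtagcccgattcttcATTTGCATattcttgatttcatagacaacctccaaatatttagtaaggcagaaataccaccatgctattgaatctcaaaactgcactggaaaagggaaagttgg
Sall1 chain peak 2 (chr8:89007254-89007553, plus strand): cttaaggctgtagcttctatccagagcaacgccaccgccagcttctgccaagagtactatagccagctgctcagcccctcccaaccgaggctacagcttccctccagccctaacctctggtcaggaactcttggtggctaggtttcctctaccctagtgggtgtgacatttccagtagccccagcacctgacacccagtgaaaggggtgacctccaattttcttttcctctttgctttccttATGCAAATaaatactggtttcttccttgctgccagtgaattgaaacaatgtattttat

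The motif TCAAGGTCA, shared by the nuclear receptors ESRRB and NR5A2, was found in 8 peaks of 8 chains. All 8 matches are shown in capitals with 20 bases on either side, on the strand of the match. Of the 8 matches, 4 lay in repeat-masked sequence, those of the *Fbxo36*, *Med13l*, *Uck2* and *Zfp217* chains, and between pairs of these the 40 flanking letters were identical at 32.5 to 72.5% of positions. Between pairs of the 4 matches outside repeats it was 25% to 30.0%.
Abt1 chain peak 1 (chr13:23430686-23430734, minus strand): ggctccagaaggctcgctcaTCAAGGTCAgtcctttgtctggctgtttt
Fbxo36 chain peak 3 (chr1:84860927-84860975, plus strand): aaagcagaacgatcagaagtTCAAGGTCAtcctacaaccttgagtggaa
Hnrnpu chain peak 1 (chr1:178358446-178358494, minus strand): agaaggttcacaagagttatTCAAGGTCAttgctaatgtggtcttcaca
Med13l chain peak 2 (chr5:118446271-118446319, minus strand): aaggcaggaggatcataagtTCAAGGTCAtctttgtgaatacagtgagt
Rbpms chain peak 2 (chr8:33903925-33903973, minus strand): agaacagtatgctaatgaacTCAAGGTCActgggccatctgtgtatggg
Slc6a6 chain peak 1 (chr6:91694682-91694730, plus strand): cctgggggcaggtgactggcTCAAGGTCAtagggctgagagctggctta
Uck2 chain peak 2 (chr1:167274140-167274188, plus strand): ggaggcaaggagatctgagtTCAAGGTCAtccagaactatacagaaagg
Zfp217 chain peak 1 (chr2:170185453-170185501, plus strand): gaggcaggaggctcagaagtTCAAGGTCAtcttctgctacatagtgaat

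A further chain covered the cluster of miR-290 genes, the main microRNAs of mESCs, which act on the cell cycle and on the exit from pluripotency. Mature 3p arms encoded on the plus strand, from RefSeq (GRCm38.p6), are given with the seed (bases 2 to 8) in capitals. No 3p arm of *Mir292* is among them, although its hairpin also lay on the plus strand in the third peak of the chain. The counts below therefore cover the listed arms only. The first 5 lay in the third peak of the chain, and the last lay just past the end of that peak. Of those 5, 4 shared the seed start AAGUGC, and miR-291a-3p and miR-294-3p shared all bases of it with miR-295-3p outside the peak.
mmu-miR-290a-3p (chr7:3218674-3218697): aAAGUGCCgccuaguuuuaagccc
mmu-miR-291a-3p (chr7:3218968-3218989): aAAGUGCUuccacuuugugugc
mmu-miR-291b-3p (chr7:3219529-3219550): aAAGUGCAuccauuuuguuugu
mmu-miR-293-3p (chr7:3220390-3220411): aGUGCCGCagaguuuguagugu
mmu-miR-294-3p (chr7:3220691-3220712): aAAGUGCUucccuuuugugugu
mmu-miR-295-3p (chr7:3220815-3220837): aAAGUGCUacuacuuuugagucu

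The chains were mostly short rows of peaks. Of the 98 chains, 60 held 3 peaks, 22 held 4, 7 held 5, 5 held 6, 3 held 7 and 1 held 8. They spanned a median of 18360.5 bp (16228 to 20730, 95% interval from order statistics), with extremes of 4193 and 42028 bp. Peaks covered a median of 31.5% of the span, from 7.68% to 74.9%. The summed peak width of a chain had a median of 4874 bp and ranged from 1360 to 18802 bp. In the median chain the widest peak held 50.1% of the summed width, with extremes of 22.4% and 87.1%. The widest of 3 peaks holds at least 1 part in 3 by construction. This share alone therefore does not show that chains are built around 1 wide peak. The widest peak stood at an end of the chain in 60 chains and inside it in 38. Of the 60 chains of 3 peaks, in which 2 of 3 positions are ends, 45 had it at an end.

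**Figure D1:**
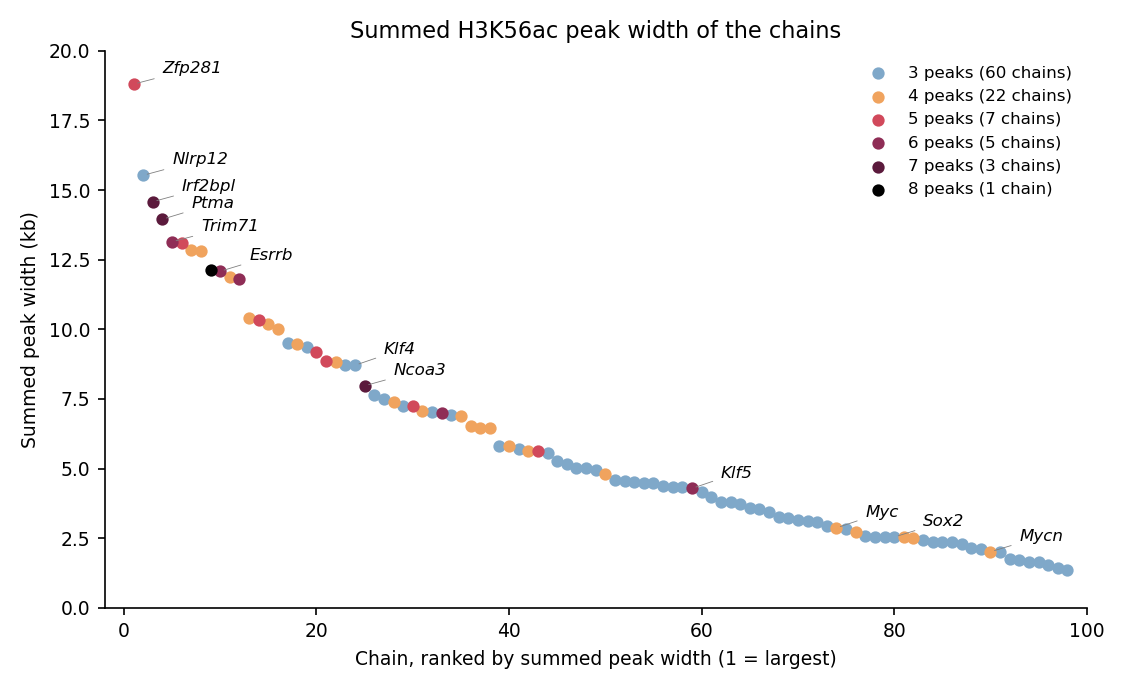
Summed peak width in kb (y axis) of each of the 98 chains in order of rank (x axis), coloured by the number of peaks. Widths fall from 18.8 kb for the *Zfp281* chain, with no gap that sets a group of chains apart, and several chains with 6 or more peaks lie among the widest.

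Chains are named here by the nearest protein-coding gene, without any statement that the gene is controlled by them. The *Zfp281* chain had the largest summed width, with 5 peaks of 1217, 5167, 2175, 7857 and 2386 bp over chr1:136669987-136708379. *Zfp281* encodes a zinc finger factor of the pluripotency network, and its TSS was 45086 bp from the chain. Start sites of 3 noncoding genes, *Gm19705*, *Gm24086* and *Platr22*, lay in peaks of the chain. *Platr22* is named as a pluripotency-associated transcript.

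The *Nlrp12* chain at chr7:3200026-3220755 was next, with only 3 peaks of 7316, 5183 and 3030 bp, and it was the most densely covered of all, at 74.9% of its span. *Nlrp12* encodes a regulator of inflammation. The third peak, however, held the annotated starts of the 8 microRNA genes *Mir290a*, *Mir290b*, *Mir291a*, *Mir291b*, *Mir292*, *Mir292b*, *Mir293* and *Mir294*. These are starts of annotated hairpins, such as chr7:3218626-3218708 for *Mir290a*, and transcription starts were not measured. *Mir290b* and *Mir292b* are minus-strand entries that overlap the hairpins of *Mir290a* and *Mir292*. The annotated hairpin of *Mir295* began 18 bp past the end of the peak. No peak lay within 1 kb of a TSS of *Nlrp12*.

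The *Irf2bpl* chain at chr12:86887336-86918834 held 7 peaks with a summed width of 14581 bp, the first at 2538 bp from the TSS and the widest, of 7567 bp, at the far end. The *Ptma* chain at chr1:86471697-86505604 held 7 peaks of 439 to 3997 bp, upstream of the gene for prothymosin alpha, a chromatin-associated acidic protein. These rows of 7 were thus built differently, with 1 dominating peak in the former and several of like width in the latter. The *Trim71* chain at chr9:114525712-114561881 lay wholly in the body of its gene, which encodes an RNA-binding ubiquitin ligase of stem cells. Its 6 peaks included a pair of similar width, 4876 and 4805 bp.

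The *Spen* chain held 4 peaks of 2148, 2156, 2133 and 6362 bp upstream of *Spen*, which encodes a corepressor that binds the RNA *Xist*. A start site of the noncoding gene *B330016D10Rik* lay in 1 of these peaks. The *Csnk1a1* chain held 4 peaks of 5261, 1418, 2683 and 3468 bp, 40934 bp from the gene for casein kinase 1 alpha, and a start of the long noncoding RNA *Bvht* lay in it. Its peaks filled 69.9% of its span.

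The *Sall1* chain at chr8:89003529-89039056 had the most peaks, with 8 of 464 to 3054 bp. *Sall1* encodes a zinc finger factor, and the chain lay 5106 bp downstream of its nearest TSS. The *Esrrb* chain at chr12:86464575-86498890 lay inside the gene of this orphan nuclear receptor, with 6 intronic peaks of 969, 7226, 1400, 712, 445 and 1331 bp of which the second reached over an internal TSS. The *Cdh1* chain was the longest, at 42028 bp, and 1 of its 6 peaks, of 470 to 4233 bp, lay upstream and 5 downstream of the TSS of the gene for E-cadherin, the adhesion protein of epithelial and stem cells. In both chains a peak too close to a TSS to count as distal lay between the members.

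**Figure D2:**
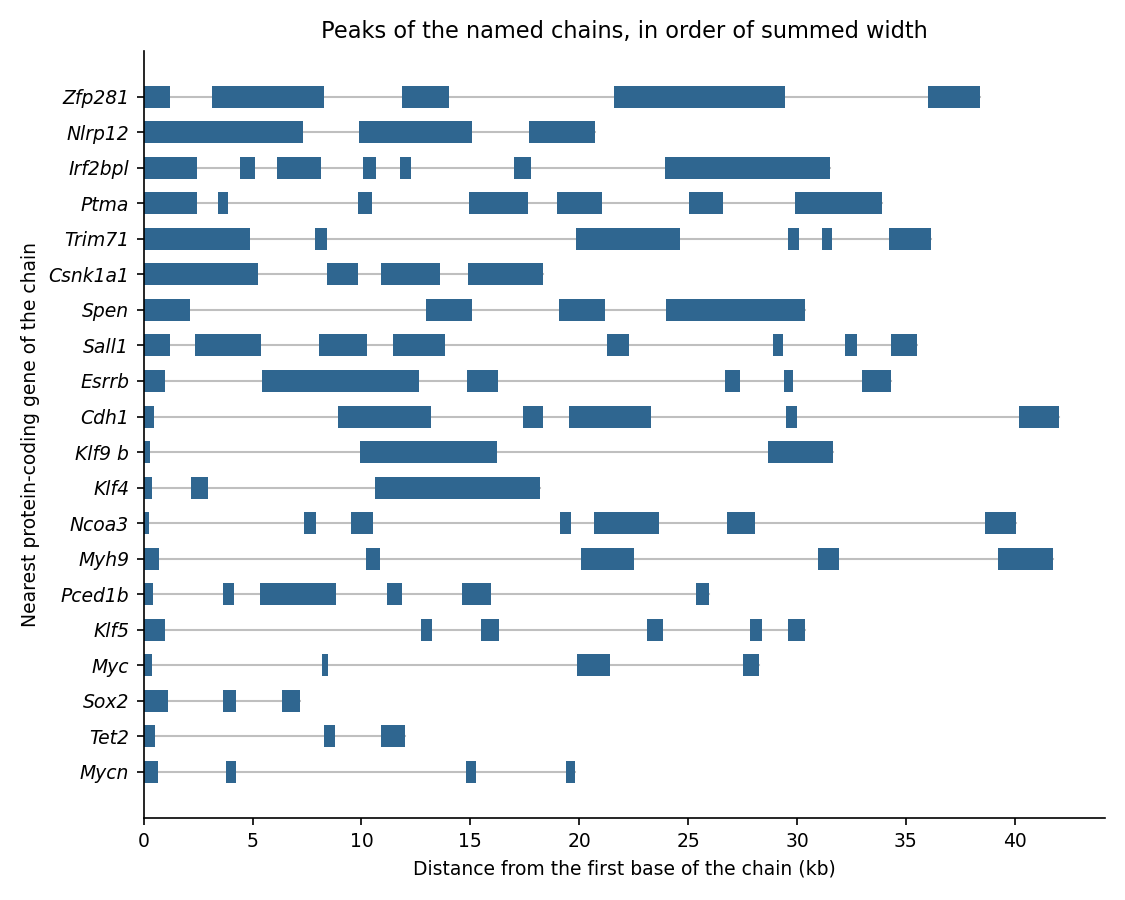
Peaks (blue blocks) of 20 named chains drawn to scale by distance in kb from the first base of the chain (x axis), each labelled with its nearest protein-coding gene (y axis) and ordered by summed width. The *Zfp281*, *Nlrp12* and *Csnk1a1* chains are filled by wide blocks, whereas the *Klf5*, *Myc* and *Mycn* chains consist of narrow blocks over long spans.

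Long spans did not go with wide peaks throughout. The *Ncoa3* chain held 7 peaks of 233 to 2987 bp over 40054 bp, of which 19.9% was covered. *Ncoa3* encodes a coactivator of nuclear receptors. The *Myh9* chain held 5 peaks of 641 to 2503 bp over 41733 bp around the gene for a nonmuscle myosin heavy chain. The *Pced1b* chain held 6 peaks of 447 to 3498 bp over 25978 bp. In these 3 chains the widest peak held less than 50% of the summed width. 

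Of the 33 genes on the list of pluripotency factors, 8 were the nearest gene of a chain, and their chains differed widely in width. Besides *Zfp281*, *Sall1* and *Esrrb* these were *Klf4*, *Klf5*, *Myc*, *Sox2* and *Mycn*. The *Klf4* chain at chr4:55463374-55481592 held peaks of 361, 763 and 7585 bp, 50178 bp downstream of the gene. *Klf4* and *Klf5* encode Krüppel-like factors of the naive state. The *Klf5* chain at chr14:99324836-99355181 held 6 narrow peaks of 960, 465, 837, 721, 522 and 783 bp, none of which reached 1 kb. The single wide peak of the *Klf4* chain was wider than those 6 together, which summed to 4288 bp.

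The *Sox2* chain at chr3:34664338-34671514 was compact, with peaks of 1118, 588 and 836 bp over 7177 bp, 13933 bp downstream of the gene. A start site of *Sox2ot*, the long noncoding RNA transcribed through the *Sox2* locus, lay in its first peak. The second peak held the octamer shown above. *Myc* and *Mycn*, which encode related transcription factors, had chains far from their TSS. The *Myc* chain at chr15:62071455-62099716 held peaks of 370, 273, 1489 and 738 bp, 84033 bp downstream, and an internal start of the noncoding gene *Pvt1* lay in the last of them. The *Mycn* chain at chr12:12784549-12804345 held peaks of 677, 480, 462 and 394 bp at 136271 bp from the gene, the largest distance of all chains, and contained a start of *Platr19*. The narrow peaks placed both low in the order of summed width.

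The remaining named chains belonged to *Klf9*, a Krüppel-like factor gene, and to *Tet2*, which encodes a dioxygenase of methylated cytosine. *Klf9* was nearest to 2 chains, 25998 bp apart, of which the one around its TSS held peaks of 274, 6258 and 2983 bp. The *Tet2* chain at chr3:133506113-133518120 lay inside its gene, with peaks of 537, 500 and 1116 bp. Other chains within 50 kb of each other were the *Hist1h2br* and *Zfp184* chains, 30813 bp apart, and the *Trmt9b* and *Dlc1* chains, 43975 bp apart. These pairs are named for their closeness alone.

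Peaks in chains were wider than other distal peaks. The median width was 941 bp (807 to 1015) in chains and 616.5 bp (599 to 634) for distal peaks outside them. By size of the run it was 575 bp (559 to 594) for peaks without a neighbour, 812.5 bp (771 to 881) in pairs, 867 bp (779 to 1010) in chains of 3 and 961.5 bp (807 to 1288) in chains of 4 or more. The intervals of the last 3 overlap. Chains of 4 or more had a smaller lower quartile than chains of 3, 590.25 against 616.5 bp, and a larger upper quartile, 2485.25 against 1812 bp. Peaks of 3 kb or wider numbered 56 of 362 in chains (15.5%, 12.1 to 19.6%) and 117 of 3020 outside (3.87%, 3.24 to 4.62%). The 56 wide peaks were spread over 43 chains, and 16 chains had no peak of 1 kb. Hence 10.7% of the distal peaks held 17.7% of the distal peak width. Width entered the selection through the edges from which gaps were measured, so these values are a description of the selected peaks.

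**Figure D3:**
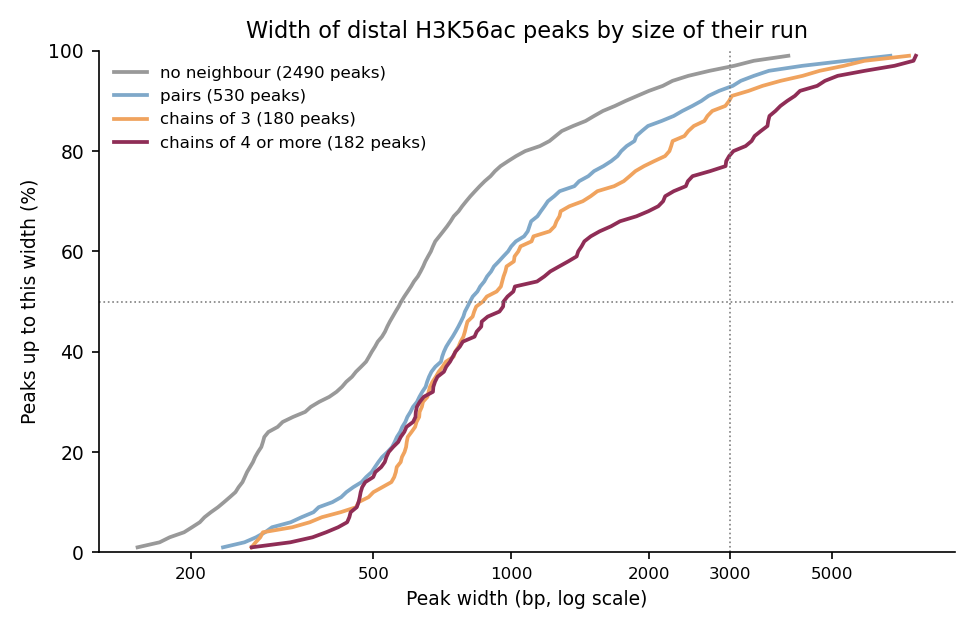
Share of distal peaks (y axis, %) up to a given width (x axis, bp, log scale) for peaks without a neighbour, in pairs, in chains of 3 and in chains of 4 or more, with dotted lines at 50% and at 3 kb. The curve for peaks without a neighbour lies to the left of the others, with a median of 575 bp against 812.5, 867 and 961.5 bp, whereas the curves for chains of 3 and of 4 or more cross below their medians and part mainly above 1 kb.

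The 264 gaps between neighbouring peaks of a chain had a median of 4160 bp, and 61 of them were shorter than 2 kb. The smallest was 1001 bp, close to the smallest gap in the whole list, 1000 bp. Peaks closer than that do not occur separately. Whether a wide peak had been joined from several could not be told from the list. Around the limit of 12500 bp, the longest gaps that joined 2 distal peaks were 12324, 12376 and 12461 bp, and the shortest that did not were 12514, 12516 and 12587 bp. The members closest to a TSS lay 3063, 3189 and 3297 bp from it, whereas the closest excluded peaks lay at 2965, 2968 and 2995 bp.

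Chains lay near genes that carried the mark at their promoters more often than did distal peaks without a neighbour. For 61 of 98 chains, a peak was centred within 1 kb of a TSS of the nearest gene (62.2%, 52.4 to 71.2%). The same held for 49.2% (47.2 to 51.2%) of the 2490 peaks without a neighbour and for 62.1% (57.9 to 66.1%) of the 530 peaks in pairs, which chains did not exceed. Over all 21938 protein-coding genes it was 33.9%. With any base of a peak within 1 kb counted, the share was 77.6% for chains, 71.5% for peaks in pairs and 53.1% for peaks without a neighbour. This wider count takes in the distal peaks themselves where their edges reach a TSS. It can therefore rise with the width and number of the peaks in a chain, and no conclusion is drawn from it. Among the 21 chains chosen to be named, 14 had a nearest gene with a promoter midpoint. *Ptma*, *Esrrb*, *Ncoa3*, *Klf5* and *Sox2* had only part of an off-centre peak that close, and *Nlrp12* and *Pced1b* had no such peak.

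The nearest TSS lay inside 14 chains, while 46 chains lay upstream and 38 downstream of it. Over all chains the median distance was 13877 bp (7947 to 21122), with 40 chains within 10 kb and 15 beyond 50 kb. A single gene body held 30 chains whole, 17 chains lay partly in gene bodies and 51 outside. By midpoint, 221 members were intergenic (61.0%), 135 intronic (37.3%) and 6 exonic (1.66%), against 58.9%, 36.6% and 4.54% of the distal peaks outside chains. Exonic midpoints were thus less frequent in chains than in all distal peaks outside them. The intervals, 0.762 to 3.57% and 3.85 to 5.34%, did not overlap. For peaks in pairs alone the share was 3.40% (2.16 to 5.30%), an interval that overlaps that of chains.

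The distal limit was set by protein-coding genes, and start sites of other annotated genes lay in the span of 45 chains and inside a member peak in 27. Of the members, 45 (12.4%, 9.42 to 16.2%) lay within 1 kb of such a start, similar to the 10.9% (9.86 to 12.1%) of other distal peaks. Of 28 *Platr* genes, singled out after their values were seen, *Platr19*, *Platr22* and *Platr29* had a start in a chain (10.7%), compared with 77 of 33475 genes that are not protein-coding (0.230%). Of 20 noncoding genes on a list compiled with earlier results known, 6 overlapped a chain. The *Mir302* genes, *Neat1* and *Meg3* were among the 14 that did not. Of the 6, 5 belong to the miR-290 cluster and lay in the same chain, so they do not count as separate cases. Overlap with chains was not counted over all noncoding genes. When the distal limit was applied to the starts of all annotated genes, 239 peaks in 67 chains were left, and 13 of the 21 chains chosen to be named kept at least 3 peaks. Those that did not included the *Zfp281*, *Nlrp12*, *Klf4*, *Sox2*, *Myc*, *Mycn* and *Klf9* chains.

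Genes of the pluripotency list had a chain nearby more often than protein-coding genes in general. A chain lay within 50 kb of a TSS of 5 of the 33 genes (15.2%, 6.65 to 30.9%), namely *Zfp281*, *Sall1*, *Esrrb*, *Klf5* and *Sox2*. The share was 0.766% (0.659 to 0.890%) over all 21938 genes and 1.37% among the 7429 genes with a promoter peak. Of the 28 chromatin regulators, *Tet2* alone had a chain that close. None was found near the 26 genes of stem cell signalling, such as *Lifr* and *Nodal*, although 53.8% of them had some distal peak within 50 kb, about the same as the 54.5% of the pluripotency list. The lists were compiled with earlier results of these data known, so the counts describe the lists and are no independent evidence.

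Markers of the other cells in the cultures were checked in the same way. No chain lay within 50 kb of the 18 fibroblast genes, which mark feeder cells, or of the 24 lineage regulators, 14 muscle genes and 14 housekeeping genes. Over all protein-coding genes the share was only 0.766%. A count of 0 was therefore likely for lists of this size and says little about these cells. With 3 counts taken as the most that 0 can hide, the fibroblast list could still hold 16.7%, the muscle and housekeeping lists 21.4% each and the signalling list 11.5%. Promoter peaks were found for 20 of the 33 pluripotency genes (60.6%) and 12 of the 14 housekeeping genes (85.7%). They were also found for 16 of the 26 signalling genes (61.5%) and 20 of the 28 chromatin regulators (71.4%). The muscle list had 1 of 14 (7.14%), and the fibroblast genes and lineage regulators had 0 each. Over all protein-coding genes the share was 33.9%. The markers of feeder cells were thus without promoter peaks, while most of the pluripotency genes had them.

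**Figure D4:**
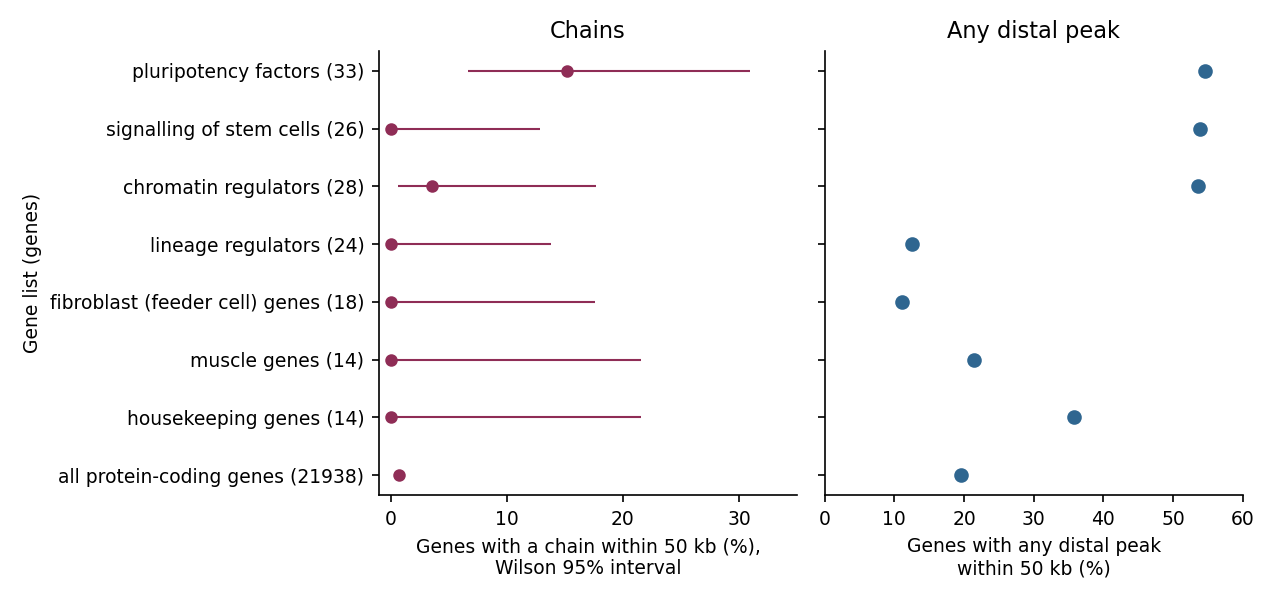
Share of the genes of each list (y axis, number of genes in parentheses) with a chain within 50 kb of a TSS (left, %, points with Wilson 95% intervals) or with any distal peak within 50 kb (right, %). The pluripotency list stands at 15.2% on the left against 0.766% for all genes. The signalling list is at 0 on the left, with an interval that reaches 12.9%. On the right it is near the pluripotency list, where all genes stand at 19.6%.

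Among the motifs, only the KLF motif differed between chains and other distal peaks beyond the intervals. GGGNGTGG, a core bound by Krüppel-like factors, was found in 70 of 362 central windows in chains (19.3%, 15.6 to 23.7%) and in 395 of 3020 outside (13.1%, 11.9 to 14.3%). Peaks in pairs stood at 16.0% (13.2 to 19.4%), an interval that overlaps that of chains, and peaks without a neighbour at 12.4% (11.2 to 13.8%). The motif was found in 16.9% of all 11106 peaks and in 18.6% of promoter peaks. In the gaps of the chains it was found in 13.4% (9.78 to 18.2%) of 253 windows of the same length. The excess was seen in wide peaks. Among peaks of at least 1 kb the share was 30.7% (24.2 to 38.1%) in chains and 18.5% (15.8 to 21.4%) outside, whereas from 500 to under 1000 bp it was 9.52% and 9.87%. In windows with a GC content of 45 to 55% the shares were 19.2% (14.7 to 24.8%) and 14.0% (12.4 to 15.6%), and these intervals overlapped. Of the KLF matches, 48.2% in chains and 48.1% outside lay in repeat-masked bases, and with those left out, a comparison added after the sequences were seen, the shares were 11.0% (8.22 to 14.7%) and 7.58% (6.69 to 8.58%). The part of width, GC content or repeats in the difference was not tested.

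The motifs of the core pluripotency factors were infrequent in chains as elsewhere. The octamer was found in 13 windows (3.59%, 2.11 to 6.05%), against 2.15% (1.69 to 2.73%) outside chains and 1.52% of all peaks. Counted over the whole width of the peaks, it was no denser in chains, at 0.548 against 0.587 matches per 10 kb. The OCT4-SOX2 core was found in 4 windows (1.10%, 0.431 to 2.81%), 1.16% outside chains, 0.756% of all peaks and 1.58% of gap windows. No window held both, and in the *Mreg* chain they lay in different peaks. The ESRRB motif was found in 8 windows (2.21%, 1.12 to 4.30%), 1.23% (0.890 to 1.68%) outside chains and 1.01% of all peaks. It was found in 0 of the 253 gap windows, which allows up to 1.19% by 3 counts or 1.50% by the Wilson interval. The gaps were not free of the motif. Over whole widths it had 0.430 matches per 10 kb in gaps, 0.583 in peaks of chains and 0.421 in distal peaks outside. Outside repeats it was left in 4 windows in chains (1.10%, 0.431 to 2.81%) and in 15 outside (0.497%, 0.301 to 0.818%). None of the 8 windows belonged to the *Esrrb* chain.

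**Figure D5:**
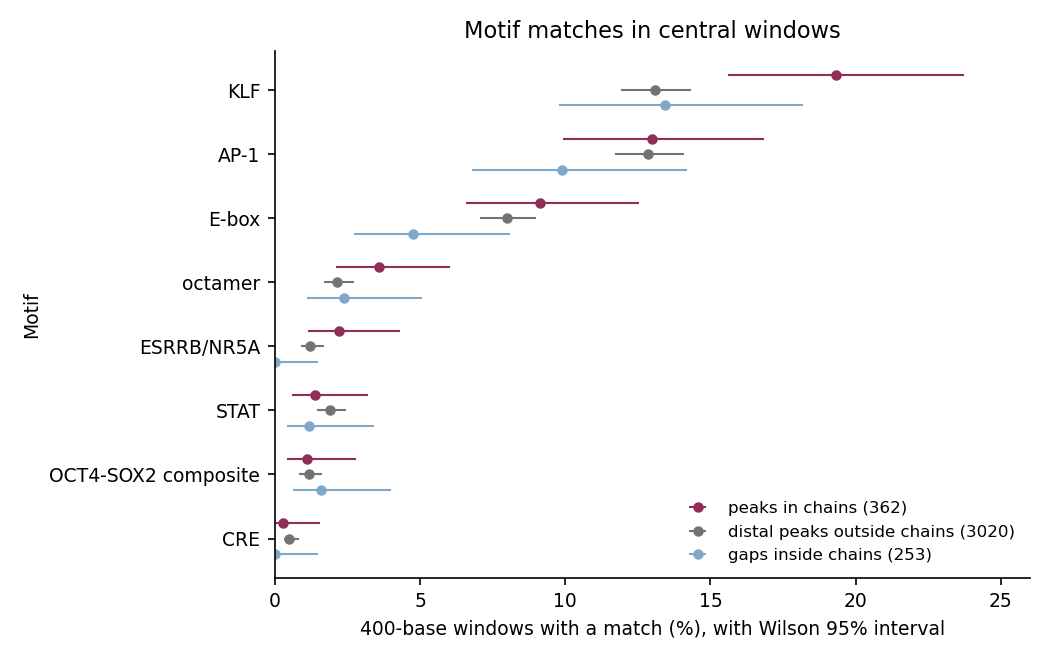
Share of 400-base windows with at least 1 match (x axis, %, points with Wilson 95% intervals) for 8 motifs (y axis) in peaks of chains, in distal peaks outside chains and in the gaps inside chains. For KLF the interval in chains, 15.6 to 23.7%, lies above that of 11.9 to 14.3% outside, and for the other 7 motifs these intervals overlap.

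The other motifs were also near their frequency outside chains. AP-1, TGANTCA, was found in 13.0% of windows in chains and 12.8% outside, against 9.21% of all peaks. The E-box CACGTG, bound by MYC, was found in 9.12% and 7.98%, and in 4.74% (2.73 to 8.11%) of gap windows. STAT, TTCCNGGAA, was found in 5 peaks in chains (1.38%) and 1.89% of peaks outside, with 1 of the 5 in the last peak of the *Klf5* chain. The cAMP response element TGACGTCA was found in a single member. AP-1, E-box, cAMP response element and STAT motifs read the same on both strands, and the octamer can overlap the OCT4-SOX2 core by its first letters.

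Peaks had a higher median GC content than the gaps between them, but the ranges overlapped widely. They were 34.7 to 63.3% in members and 36.3 to 58.1% in gaps. The median GC content of members was 49.2% (48.6 to 49.7%), above the 48.2% (48.0 to 48.5%) of distal peaks outside chains and the 46.0% of the gaps. It was below the 53.1% of promoter peaks. Peaks in pairs stood at 48.8% (48.4 to 49.2%), an interval that overlaps that of members. Only 4.97% of members had a ratio of observed to expected CpG of at least 0.6, compared with 51.9% of promoter peaks. The median share of repeat-masked bases was higher in members, 17.8%, than in distal peaks outside chains, 13.9%, but fewer members were made up mostly of repeats. At least 50% of the bases were repeat-masked in 10 members (2.76%, 1.51 to 5.01%) and in 357 other distal peaks (11.8%, 10.7 to 13.0%). Most of those 357 were peaks without a neighbour, 331 of 2490 (13.3%), whereas 26 of the 530 peaks in pairs (4.91%) were masked to that extent. Further shares by width compare members with all distal peaks outside chains. Among peaks under 500 bp the shares were 8.16% (3.22 to 19.2%) and 24.6% (22.1 to 27.3%). From 500 to under 1000 bp they were close, 3.40% (1.46 to 7.71%) and 4.64% (3.58 to 5.99%), and from 1 kb they were 0.602% (0.106 to 3.33%) and 4.45% (3.18 to 6.18%), and in both of these classes the intervals overlap.

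Chains were found on every autosome. Chromosomes 1 and 8 held 10 each, and chromosomes 4 and 17 held 9 each. Chains took in 19.2% of the 219 distal peaks of chromosome 8, the highest share, and 4.29% of the 140 on chromosome 3, the lowest of any autosome. None lay on the X chromosome, where 0 of 42 distal peaks were members. Members come in runs of at least 3 and are not independent. The 0 therefore gives no usable upper limit and does not set the X chromosome apart.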

How the data were processed

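The authors trimmed the ChIP-seq reads, aligned them to mm10 with bowtie, removed duplicates, called peaks with MACS2, dropped blacklisted regions and merged the peaks of all libraries. The deposited list held start and end of each peak, and its deposited score column was 0 throughout and was not used. It held no read counts, so the depth behind a peak is unknown. Groups were taken from the sample titles: 2 Scramble and 2 *Sirt6* KD H3K56ac libraries and 1 input each.

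Positions counted from 0 were printed counted from 1, on GRCm38 with genes of GENCODE M21. Midpoints gave the distance to a TSS, and edges gave the gaps. Repeats were the lower-case bases of the assembly. Motif windows of peaks under 400 bp reach past the peak. Intervals on shares were Wilson intervals at 95%, and those on medians came from exact binomial order statistics. Both cover counting error alone, and neighbouring peaks are not independent. No test between samples was possible. Named chains were the 10 with the largest summed width, the most peaks or the longest span, and those at genes of 8 lists of 177 genes. Of these 21 chains, 1 enters the counts but is not reported here. Members and lists were chosen with earlier results of these data known. The chaining, the motif search and the intervals were written in Python 3.11.15 (pandas 2.3.3, numpy 2.4.6, scipy 1.17.1) and tested on simulated data.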

Additional observations from a re-analysis of the deposited data

How the results depend on the processing

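Of 70 values, 7 results under 10 other settings, 55 stayed within the interval of the main value or, for counts, within 1.5 times of it. The number of chains, 98, became 44 with a gap of at most 5 kb, 156 with 25 kb, 38 when 4 peaks were required and 24 with only peaks at least as wide as the median peak. The number of peaks, 362, became 143 and 590 with these gaps, 182 with 4 peaks required, 84 with wide peaks only, 545 with a distal limit of 1 kb and 239 with the TSS of all annotated genes. The median span, 18360.5 bp, became 11280.5 bp at 5 kb, 24805 bp at 25 kb and 24912 bp with 4 peaks required. The median width, 941 bp, became 1214 bp at 5 kb and 2206.5 bp with wide peaks only. These alternatives change by construction which peaks are linked or admitted. GC content, the share of nearest genes with a promoter peak and the share with the OCT4-SOX2 core stayed within their intervals under all 10. So did the last when matches in repeats were left out, which was chosen after seeing the data. The share with a promoter peak fell to the edge of its interval, 52.4% (44.4 to 60.3%), with a distal limit of 1 kb. With wide peaks only it was 54.2% (35.1 to 72.1%). Both of these intervals include the 49.2% found for peaks without a neighbour under the main setting. Of the 21 chains chosen to be named, 15 kept 3 peaks at 5 kb, 20 with distances taken from peak edges and 11 with wide peaks only. No paired analysis was possible because peaks carry no replicate number. The positions give no signal, so chains could not be ranked by it, and a chain may join peaks of different libraries or groups.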

Other observations

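The following values were chosen after the chains had been seen. Of the 17 *Klf* genes, which encode Krüppel-like factors, *Klf5*, *Klf9* and *Klf13* had a chain within 50 kb of a TSS (17.6%), compared with 0.766% of all protein-coding genes. *Klf4* lay just beyond that distance from its chain. Measured to the TSS that had a peak midpoint within 1 kb, the nearest protein-coding gene lay a median of 35008 bp from a chain, within 50 kb of 55 chains and within 100 kb of 78. For 57 of the 98 chains it was also the gene with the nearest TSS of any kind. In the *Fbxo36*, *Ggnbp1*, *Ndfip1* and *Csnk1a1* chains the nearest gene had such a midpoint at another, farther TSS, and another gene was closer by this measure. The farthest, at 583017 bp, belonged to the *Sox2* chain, because the peak that reached the *Sox2* promoter had its midpoint more than 1 kb from the TSS.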
